A study of Mus musculus with 30 samples.

Results

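The genes described are 10 members of the pathway that brings glucose into the cell and breaks it down to pyruvate and lactate: Slc2a1, Slc2a3, Hk2, Pfkp, Aldoa, Pgk1, Eno1, Pkm, Ldha and Pdk1. They were taken by name, with no threshold on a measured value, but with earlier results of these data known. Counts and medians of the members below are thus not those of a blind choice. The members are 10 of the 55401 genes in each of the 4 count tables of nuclear RNA-seq. All 10 were found and passed the filter on low counts in the exon column of every table. With adjustment over all genes, the main edgeR fit, which has no replicate term, called none of the 10 in any of the 15 exon comparisons. Some other settings, among them a replicate block, called members, as given at the end. The values below describe which members stood highest against their controls and how far the replicates agreed.

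Glucose enters a mammalian cell through facilitative transporters, is phosphorylated by a hexokinase and, after a second phosphorylation by phosphofructokinase, is split by aldolase. The later steps make ATP at phosphoglycerate kinase and pyruvate kinase, with enolase between them. Lactate dehydrogenase turns pyruvate into lactate, and pyruvate dehydrogenase kinase closes the alternative route by switching off pyruvate dehydrogenase. Mouse ES cells in serum and LIF use glycolysis heavily, and many of these genes are known targets of the hypoxia-inducible factors (HIF).

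Mouse ES cells were grown in serum with LIF. SYAT cells derive from the line CGR8, carry YPet-AID on both alleles of Srcap, which encodes the ATPase of a chromatin remodeler that places the histone variant H2A.Z, and express the receptor OsTir1, so that indole-3-acetic acid (IAA, 500 µM) triggers degradation of SRCAP. SYAT controls received auxinole, an inhibitor of Tir1, and IAA was given for 2, 4, 6 or 8 h (10 libraries). Parental CGR8 cells, which have neither the degron nor the receptor, were left untreated or received IAA for 4 h (4 libraries). SYAT cells that also carry an mCherry reporter degraded at mitosis were sorted in early G1 (EG1) or late G1 (LG1) after 1 h of IAA or as controls (8 libraries), where the sort rested on DNA content and mCherry. In the fourth table, SYAT cells expressed wild-type SRCAP-mCherry (wtSRCAP) or a catalytically dead form (cdSRCAP) after 24 h of doxycycline at 1 µg/mL and were sorted for high mCherry, with or without 4 h of IAA (8 libraries). Each of these last lines is 1 clone, so line and clone cannot be told apart. Every condition had 2 biological replicates. P-values set the difference between groups against the spread between duplicates, estimated over all conditions of a table and partly shared across genes. Overlap between groups is described for the members only, and the share of all genes without overlap was not counted.

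Exon columns summed to 45617992 to 60214521 counts per CGR8 library and to 17540823 to 22873893 per library of the SYAT time course. Sorted libraries held 19740778 to 26672402 exon counts, and libraries of the SRCAP-mCherry lines 12236493 to 26369773. All 10 mouse ES cell markers were detected in every table, with a summed level of 1769 to 5126 CPM, a count scaled to the effective size of its library, against 6.22 to 52.2 CPM for 8 fibroblast markers, of which Postn was at 0 in all libraries. Srcap itself, whose protein and not its RNA is the target of IAA, lay at 21.3 to 24.2 exon CPM without the degron (CGR8), 39.9 to 60.2 over the SYAT time course, 50.2 to 60.0 after the G1 sort and 48.9 to 74.5 in the SRCAP-mCherry lines. The intron columns of the SYAT time course and of EG1 also hold exonic reads, since of genes with a single exon and 20 or more exon counts, 35.4% to 48.2% have counts there, against at most 0.0908% in the other libraries. Slc2a1 and Aldoa are at 0 in the intron columns of all CGR8, LG1, wtSRCAP and cdSRCAP libraries, which says nothing of their transcription, so 8 members have an intron value there.

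Promoters of 4 members are shown as examples. Pgk1 and Ldha stood out in introns and Pdk1 in exons, and Hk2 is shown as the kinase that starts the pathway. Pfkp also stood out in introns and is not shown, and its window held no match to the motif marked below. The sequences are the 250 bases before the start in RefSeq on GRCm38.p6, on the strand of the gene. Capitals mark ACGTG or its reverse complement CACGT, a form of the core of the element that HIF binds. Where CACGTG occurs, both strands match and the matches overlap.
Pgk1 (chrX:106186850-106187099, plus strand): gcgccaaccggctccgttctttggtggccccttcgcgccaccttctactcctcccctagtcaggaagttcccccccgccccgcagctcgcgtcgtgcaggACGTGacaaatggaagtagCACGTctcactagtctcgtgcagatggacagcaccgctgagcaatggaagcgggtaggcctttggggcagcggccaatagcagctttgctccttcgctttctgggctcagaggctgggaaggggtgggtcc
Ldha (chr7:46845554-46845803, plus strand): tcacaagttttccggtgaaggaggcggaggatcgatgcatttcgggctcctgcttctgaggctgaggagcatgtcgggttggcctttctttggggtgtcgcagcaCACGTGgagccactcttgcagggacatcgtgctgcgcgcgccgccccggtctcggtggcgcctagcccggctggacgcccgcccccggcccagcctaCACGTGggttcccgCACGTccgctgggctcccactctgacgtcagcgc
Hk2 (chr6:82774455-82774704, minus strand): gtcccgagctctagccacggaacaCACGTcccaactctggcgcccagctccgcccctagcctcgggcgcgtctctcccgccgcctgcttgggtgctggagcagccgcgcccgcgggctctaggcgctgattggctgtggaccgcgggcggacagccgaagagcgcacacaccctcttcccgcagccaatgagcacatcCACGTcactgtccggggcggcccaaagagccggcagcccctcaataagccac
Pdk1 (chr2:71872974-71873223, plus strand): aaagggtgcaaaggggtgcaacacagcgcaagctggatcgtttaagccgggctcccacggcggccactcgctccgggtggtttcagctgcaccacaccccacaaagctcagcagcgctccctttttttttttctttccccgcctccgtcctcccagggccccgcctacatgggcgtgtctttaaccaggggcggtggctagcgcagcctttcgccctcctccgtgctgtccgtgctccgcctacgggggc
RefSeq gave such a window for 9 of the 10 members, all but Slc2a3. ACGTG was found on either strand in a window of 6 of them: Ldha held 5 matches, Pgk1 and Hk2 2 each, and Aldoa, Slc2a1 and Pkm 1 each. No match to ACGTG was found for Pdk1, Pfkp and Eno1, and other forms of the core were not searched. Of 27025 genes with a window, 18.5% held the motif. A match is a description of letters and was not tested as a binding site.

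Levels of different members are compared here per kilobase of exon, as CPM per kb. In SYAT controls the order was Pkm (pyruvate kinase, 532 ± 13.9, SD, n = 2), Aldoa (aldolase A, 363 ± 20.1), Ldha (lactate dehydrogenase A, 333 ± 20.2), Eno1 (enolase 1, 208 ± 14.6) and Slc2a1 (the transporter GLUT1, 167 ± 12.6). Below them came Pgk1 (phosphoglycerate kinase 1, 73.1 ± 1.43), Hk2 (hexokinase 2, 61.4 ± 4.23), Slc2a3 (the transporter GLUT3, 30.7 ± 4.6), Pdk1 (pyruvate dehydrogenase kinase 1, 13.7 ± 0.255) and Pfkp (platelet-type phosphofructokinase, 5.38 ± 0.765). Aldoa and Ldha differed by less than 1 SD of each summed, and the other neighbours were separated by more than their spread in these controls. In EG1 and LG1 controls the spread was wide, and the levels of Slc2a1, Eno1 and Ldha overlapped there.
The level of Slc2a3 was 27.4 and 33.9 CPM per kb in the SYAT controls against 129 in both CGR8 controls, 109 and 72.3 in EG1 controls, 140 and 93.1 in LG1 controls, 148 and 76.0 in wtSRCAP controls, and 87.4 and 106 in cdSRCAP controls. Pdk1 was at 13.5 and 13.9 CPM per kb in SYAT controls and at 25.1 and 24.0 in CGR8 controls. The tables were scaled separately, so these differences between tables were not tested.

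**Figure D1:**
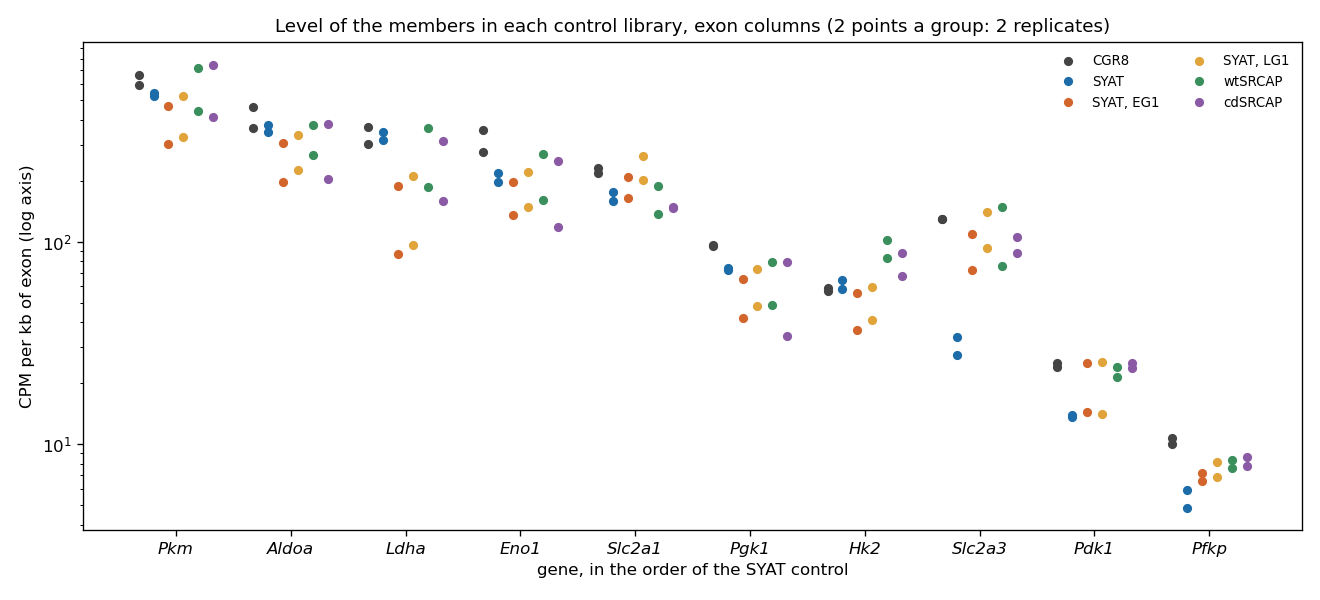
Level of the 10 members in each control library, as CPM per kb of exon on a log axis, with 2 points a group for the 2 replicates. Pkm stands highest in all 6 control groups and Pfkp lowest. The points of Slc2a3 in the SYAT time-course controls lie at 27.4 and 33.9, below those of the other control groups.

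In SYAT cells, the transporter gene Slc2a3 stood highest above its controls at every time of IAA, by about 1.2 to 1.5 fold, and the kinase gene Pdk1 came next at 4, 6 and 8 h. In the main edgeR fit no member passed the call, an adjusted p under 0.05 with an absolute log2 fold change over 0.5, at any time. At an unadjusted p under 0.05, edgeR gave 0 members at 2 h, 1 at 4 h, 5 at 6 h and 2 at 8 h, all higher after IAA, and DESeq2 without a replicate term called none. Of all 19205 genes tested, the call was met by 0% at 2 and 4 h, 0.0677% at 6 h and 0.00521% at 8 h, and the unadjusted threshold was met by higher values in 1.37%, 3.09%, 7.93% and 5.13%. The median log2 fold change of the 10 members was 0.09, 0.10, 0.41 and 0.19 at 2, 4, 6 and 8 h, while that of all genes lay between 0.00 and 0.03. Above their control stood 10, 10, 10 and 9 of the 10 members, against 50.6%, 52.4%, 50.9% and 53.2% of all genes. The 4 times share the same 2 control libraries, and in such bulk libraries a different share of cells and a different RNA level per cell cannot be told apart.

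Slc2a3 (chromosome 6, 122727809 to 122801640, minus strand, GRCm38) had 199 and 246 exon CPM in the SYAT controls. It had 245 and 300 CPM at 2 h, 292 and 300 at 4 h, 298 and 358 at 6 h and 312 and 297 at 8 h. All libraries from 4 h on lay above both controls, while at 2 h the lower library overlapped the higher control. The log2 fold changes were 0.29, 0.41, 0.56 and 0.46 with a standard error (SE) of 0.15 at each time, and the adjusted p values at 4, 6 and 8 h were 0.44, 0.13 and 0.24. About 3.13% of its longest matching transcript is a repeat that other genes also carry.
Slc2a1 (chromosome 4, 119108711 to 119137983, plus strand) had 618 and 556 CPM in the controls. Its values were 692 and 599 CPM at 2 h, 784 and 626 at 4 h, 750 and 868 at 6 h and 816 and 577 at 8 h. The 4 and 6 h libraries lay above both controls, and a library at 2 h and at 8 h fell between them. The log2 fold changes were 0.14, 0.26, 0.46 and 0.25 (SE 0.19), with an adjusted p of 0.26 at 6 h.

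Hk2 (chromosome 6, 82725025 to 82774454, minus strand) had 384 and 349 CPM in the controls and 411 and 438 at 6 h, but 420 and 300 at 8 h. Its log2 fold changes were 0.07, 0.04, 0.21 and -0.02 (SE 0.17), so the 8 h libraries straddled the controls. Pfkp (chromosome 13, 6579768 to 6648777, minus strand) had 64.9 and 79.4 CPM in the controls and 73.4 and 114 at 6 h. Over the 4 times its log2 fold changes were 0.23, 0.26, 0.38 and 0.27 (SE 0.25). Its second replicate was the higher of the 2 at every time and in the control.
Aldoa (chromosome 7, 126795234 to 126800751, minus strand) had 1099 and 1017 CPM in the controls, 1159 and 1106 at 2 h, 1189 and 1132 at 4 h, 1207 and 1756 at 6 h and 1371 and 1172 at 8 h. All 8 treated libraries lay above both controls, and the second library at 6 h stood far above the first. The log2 fold changes were 0.10, 0.13, 0.49 and 0.27 (SE 0.17), with an adjusted p of 0.22 at 6 h.

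Pgk1 (chromosome X, 106187100 to 106203699, plus strand) lay closest to its controls, with 162 and 166 CPM in the controls, 162 and 187 at 6 h, and changes of 0.07, 0.03, 0.09 and 0.04 on the log2 scale (SE 0.15). Eno1 (chromosome 4, 150236721 to 150248879, plus strand) had 1174 and 1064 CPM in the controls and 1206 and 1828 at 6 h, a log2 fold change of 0.44 (SE 0.19, adjusted p 0.28). At 2, 4 and 8 h its log2 fold changes were 0.09, 0.06 and 0.13. Pkm (chromosome 9, 59656368 to 59679375, plus strand) had 2708 and 2609 CPM in the controls and 2816 and 3885 at 6 h. Its log2 fold changes were 0.05, 0.06, 0.33 and 0.09 (SE 0.17). Ldha (chromosome 7, 46841475 to 46855627, plus strand) had 1149 and 1055 CPM in the controls and 1198 and 1597 at 6 h. Its log2 fold changes over the 4 times were 0.06, 0.08, 0.34 and 0.07 (SE 0.17).
Pgk1, Eno1, Pkm, Ldha and Aldoa share stretches of at least 100 bases at 95% identity or more with 4, 4, 2, 8 and 2 other annotated genes, mostly pseudogenes, so reads of these copies may be counted with them or lost.
Pdk1 (chromosome 2, 71873224 to 71903858, plus strand) had 105 and 108 CPM in the controls and, like Hk2, shares no such stretch with another gene. It had 123 and 119 CPM at 2 h, 136 and 123 at 4 h, 139 and 166 at 6 h and 146 and 126 at 8 h. Both libraries of every time lay above both controls. The log2 fold changes were 0.18, 0.28, 0.51 and 0.35 (SE 0.13 or 0.14), and the adjusted p was 0.12 at 6 h and 0.30 at 8 h.

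**Figure D2:**
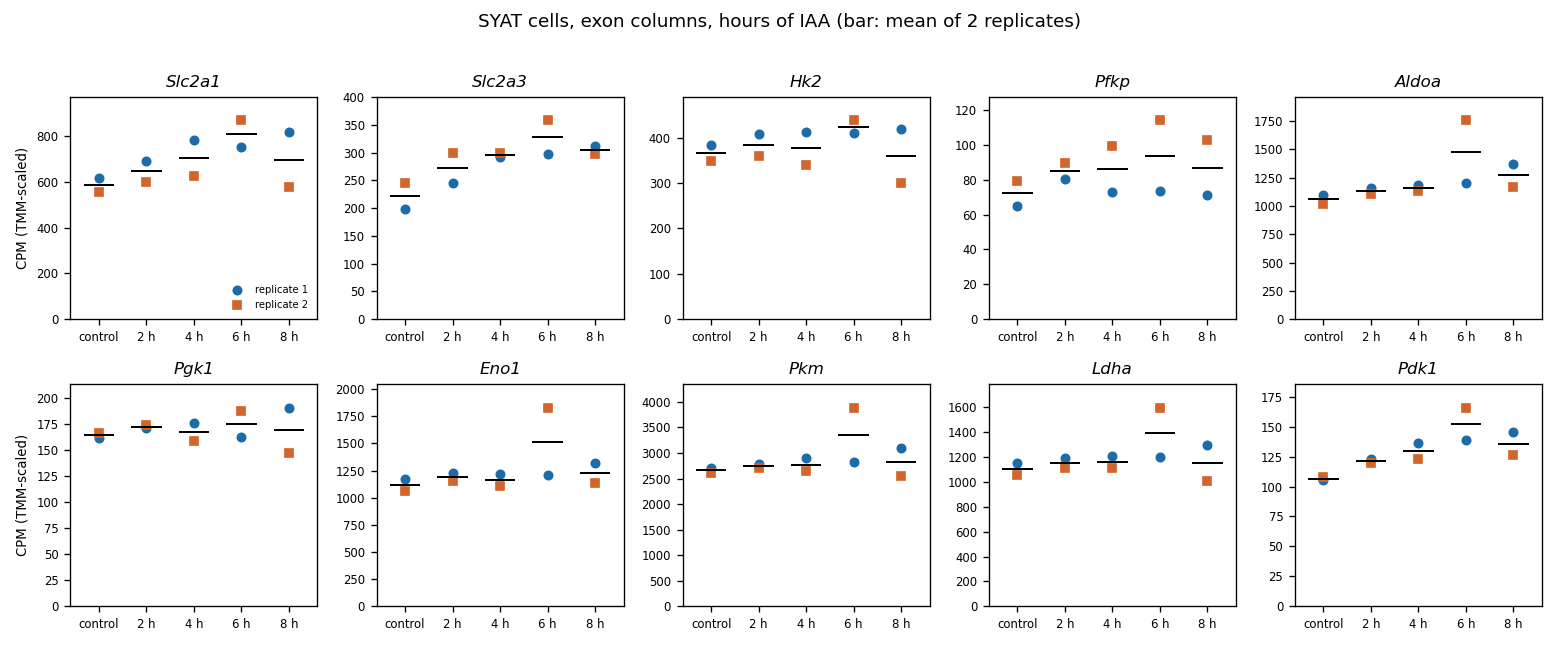
Exon CPM (TMM-scaled) of the 10 members in SYAT controls and after 2, 4, 6 and 8 h of IAA, with circles for replicate 1, squares for replicate 2 and a bar for their mean. Pdk1 lies above both controls in all 8 treated libraries, and Aldoa, Eno1, Pkm and Ldha have their highest value in the second library at 6 h.

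The second library at 6 h decided much of that time point. It held the highest value of Aldoa (1756 CPM), Eno1 (1828), Pkm (3885) and Ldha (1597) in the time course, and its TMM factor of 0.854 was the lowest of the table, in which the others lay between 0.966 and 1.08. Its 10 ES cell markers summed to 3439 CPM against 2368 in the first library at 6 h, and the part of these differences in the result was not tested. Primitive endoderm markers summed to 315 and 260 CPM in controls against 380 and 453 at 6 h. Fibroblast markers summed to 29.8 and 24.2 against 31.8 and 40.2, and mesoderm markers to 16.2 and 11.3 against 21.9 and 22.4. Neural progenitor markers overlapped, at 298 and 189 CPM in controls against 290 and 302 at 6 h. The part of these marker sums was not tested either. Without the second library at 6 h, the median log2 fold change of the members at 6 h was 0.15, with Aldoa at 0.19, Eno1 at 0.11, Pkm at 0.09 and Ldha at 0.12, while Slc2a3 stood at 0.43, Pdk1 at 0.38 and Slc2a1 at 0.36. Without the first library at 6 h, the median was 0.61 and 6 members were called, Slc2a3, Pdk1, Aldoa, Pkm, Ldha and Eno1, in a fit that called 15.4% of 20497 genes. The number of members above the control fell to 9 without the second library at 6 h, to 6 without the first library at 4 h and to 5 without the first library at 8 h, where the median was -0.01. The count at an unadjusted p under 0.05 was likewise set by single libraries: at 6 h it was 8 without the first treated library and 2 without the second or without either control, at 8 h it was 0 without the first treated library or the first control, 1 without the second control and 3 without the second treated library, and at 4 h it was 0 without either treated library or the first control.

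In the SYAT intron columns, Pfkp was the member with the widest difference. It had 15.6 and 24.6 CPM in the controls, 42.2 and 50.5 at 2 h, 33.7 and 57.0 at 4 h, 43.7 and 70.5 at 6 h and 40.3 and 66.7 at 8 h. Every treated library lay above both controls, with log2 fold changes of 1.21, 1.17, 1.51 and 1.41 (SE 0.39) and adjusted p values of 0.83, 0.37, 0.16 and 0.20. DESeq2 called Pfkp at 6 h (adjusted p 0.0048), where it called 2.28% of 22464 genes, and at 8 h (adjusted p 0.011), where it called 2.03%. Without the first library at 6 h edgeR called Pfkp too, in a fit that called 9.56% of 15361 genes. The gene overlaps Pitrm1 on the opposite strand, and the strand setting of the counting is not given in the sources used here.
For the other 9 members these intron columns ran close to the exon columns, since exonic reads are in both. Beside Pfkp at each time, Slc2a3, Pdk1 and Slc2a1 passed an unadjusted p under 0.05 at 6 h, so that 1, 1, 4 and 1 members did so at 2, 4, 6 and 8 h, all higher. Among the 14719 genes tested, higher values met it in 1.84%, 3.63%, 6.53% and 5.67%, and the call was met by 0%, 0%, 0.0136% and 0.00679%. With the exon column subtracted, 6 members kept enough counts for a test, and among them Pdk1 at 6 h had a log2 fold change of 0.82 (SE 0.26, unadjusted p 0.014), while Ldha at 6 h and Slc2a3 at 8 h changed sign to -0.01 and -0.08.

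CGR8 cells lack the degron, so their response to 4 h of IAA addresses what the agent does without loss of SRCAP. Slc2a1, Pgk1 and Pdk1 were higher by about 1.2 fold in their exon columns, and Pgk1, Ldha and Pfkp by about 1.5 to 1.6 fold in their intron columns, none of them past the call. In exons, 2 members were at an unadjusted p under 0.05, both higher, where 5.04% of 20250 genes were higher at that threshold and 0.00988% met the call. DESeq2 called no member. The median log2 fold change of the members was -0.01, and 5 of 10 stood above the control, against 50.0% of all genes, but 8 did so without the first untreated library. Leaving out any 1 library left 0 or 1 member at an unadjusted p under 0.05.
Slc2a1 had 811 and 766 exon CPM without IAA and 1022 and 918 with it, with no overlap, a log2 fold change of 0.30 (SE 0.12) and an adjusted p of 0.54. Pgk1 had 215 and 213 CPM without and 253 and 271 with IAA (log2 fold change 0.29, SE 0.12, adjusted p 0.54). Pdk1 had 195 and 186 against 227 and 230 CPM (0.26, SE 0.12, adjusted p 0.56). All 3 genes had both treated libraries above both controls, as had Slc2a3 with 932 and 934 against 1027 and 1040 CPM (0.15, SE 0.12).
The log2 fold changes of Aldoa, Eno1 and Pkm were -0.19, -0.19 and -0.22 with SEs of 0.14 to 0.16, and those of Hk2, Ldha and Pfkp were -0.09, -0.02 and 0.00 with SEs of 0.13. The libraries of these 6 genes overlapped between the groups.

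In the CGR8 intron columns, which hold no exonic reads, Pgk1 had 107 and 91.4 CPM without IAA and 147 and 171 with it. Its log2 fold change was 0.68 (SE 0.17, adjusted p 0.73). Ldha had 94.3 and 102 CPM against 137 and 152, a log2 fold change of 0.56 (SE 0.16, adjusted p 0.88). Pfkp had 104 and 164 CPM against 203 and 204 (0.59, SE 0.21, adjusted p 0.92). All 3 genes had no overlap between the groups, and they were the 3 of 8 members at an unadjusted p under 0.05, where 2.57% of 13634 genes were higher at that threshold and 0.022% met the call.
The log2 fold changes of Slc2a3, Pkm, Pdk1, Hk2 and Eno1 were 0.23, 0.16, 0.14, 0.12 and -0.00 with SEs of 0.12 to 0.16, and the median of the 8 members was 0.20 against 0.01 over all genes. No member was called by the main edgeR fit or by DESeq2 with all 4 libraries. Without the first untreated library edgeR called Pgk1 (0.80, adjusted p 0.021) and 0.795% of 14599 genes. Without the second it called Pfkp, Pgk1 and Ldha (0.97, 0.57 and 0.62) and 7.74% of 14410 genes, while without either treated library no member was called. Without the second treated library 0 members were at an unadjusted p under 0.05.

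Set side by side at 4 h of IAA, the exon log2 fold changes in CGR8 and SYAT cells were 0.30 and 0.26 for Slc2a1, 0.26 and 0.28 for Pdk1, 0.15 and 0.41 for Slc2a3, and 0.29 and 0.03 for Pgk1. Aldoa, Eno1 and Pkm stood at -0.19, -0.19 and -0.22 in CGR8 cells and at 0.13, 0.06 and 0.06 in SYAT cells. The lines are in separate tables and have different controls (untreated or auxinole), so the difference between them was not tested.

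**Figure D3:**
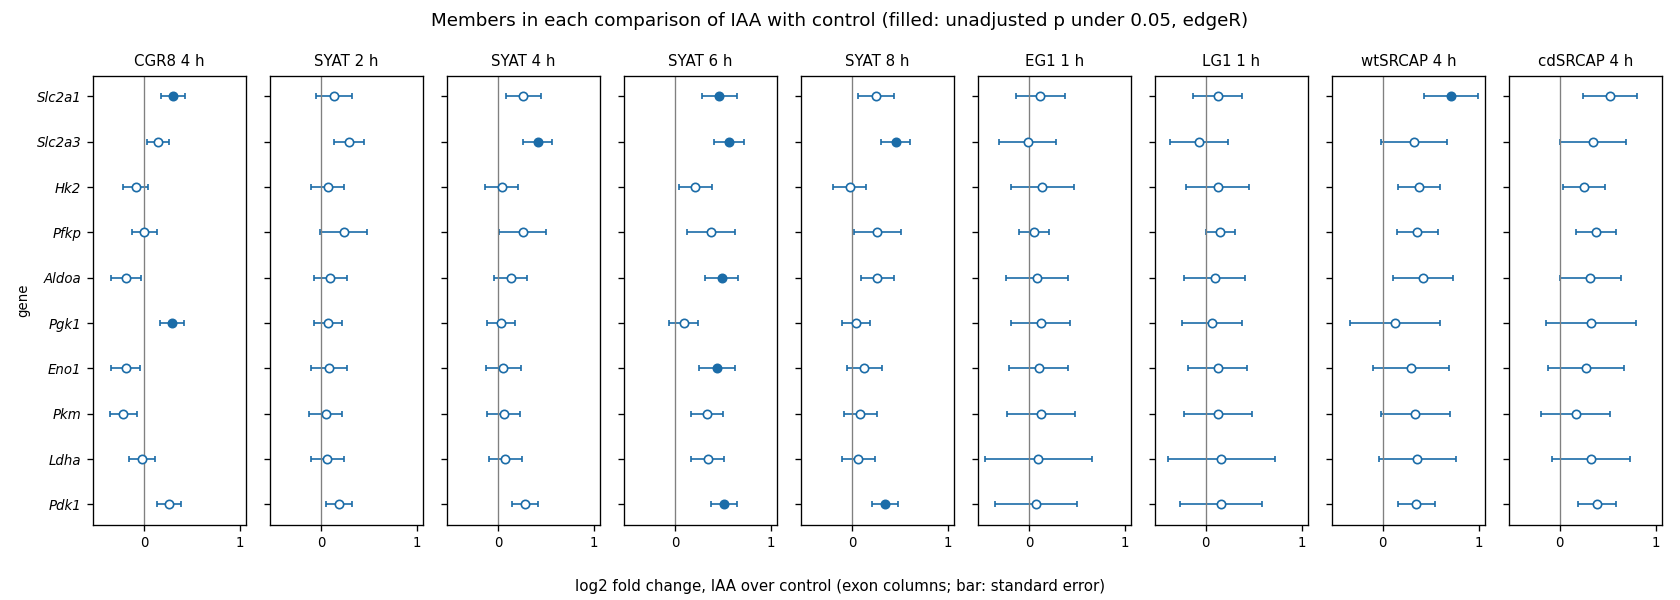
Log2 fold change of IAA over control in the exon columns for the 10 members (rows) in 9 comparisons (panels), with the standard error as a bar and filled points at an unadjusted p under 0.05 by edgeR. Slc2a1 has a filled point in CGR8 cells, in SYAT cells at 6 h and in wtSRCAP cells, and the sorted cells have none.

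After 1 h of IAA in sorted cells, treated and control libraries overlapped for every member in the exon columns. In EG1 the exon log2 fold changes were 0.12 for Slc2a1, -0.01 for Slc2a3, 0.14 for Hk2, 0.05 for Pfkp, 0.08 for Aldoa, 0.12 for Pgk1, 0.10 for Eno1, 0.12 for Pkm, 0.10 for Ldha and 0.07 for Pdk1. In LG1 they were 0.12, -0.07, 0.12, 0.15, 0.09, 0.07, 0.12, 0.12, 0.16 and 0.16 in the same order. The SEs lay between 0.15 (Pfkp) and 0.56 (Ldha) in both phases. No member passed the call or an unadjusted p under 0.05 with edgeR, and DESeq2 called none. Of 21020 genes the call was met by 0% in both phases, and 0.19% in EG1 and 0.285% in LG1 were higher at the unadjusted threshold.
Hk2 had the largest difference in EG1, with 217 and 332 CPM in controls and 241 and 363 after IAA, and Ldha in LG1, with 317 and 701 CPM in controls and 349 and 788 after IAA. For both genes the gap between the replicates was wider than that between the groups. A count of 9 of 10 members stood above the control in EG1 and in LG1, against 50.1% and 52.5% of all genes, but it fell to 2 in EG1 without the first control library or without the second IAA library, and likewise to 2 in LG1. Those fits leave the replicate numbers unbalanced, and the replicates differed by more than the groups.

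The replicates of the sorted cells differed more than the treatments did. Ldha had 286 CPM in the first and 619 in the second EG1 control, 338 and 631 after IAA in EG1, 317 and 701 in LG1 controls and 349 and 788 after IAA in LG1. Pkm had 1522 and 2334 CPM in EG1 controls and 1641 and 2612 in LG1 controls. For Slc2a1, Hk2, Aldoa, Pgk1, Eno1, Pkm, Ldha and Pdk1 the first replicate was the lower in all 4 conditions. Slc2a3 went the other way, with 792 and 524 CPM in EG1 controls and 1014 and 674 in LG1 controls, and Pfkp did so by less, with 96.7 and 88.1 and with 109 and 92.4 CPM.

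**Figure D4:**
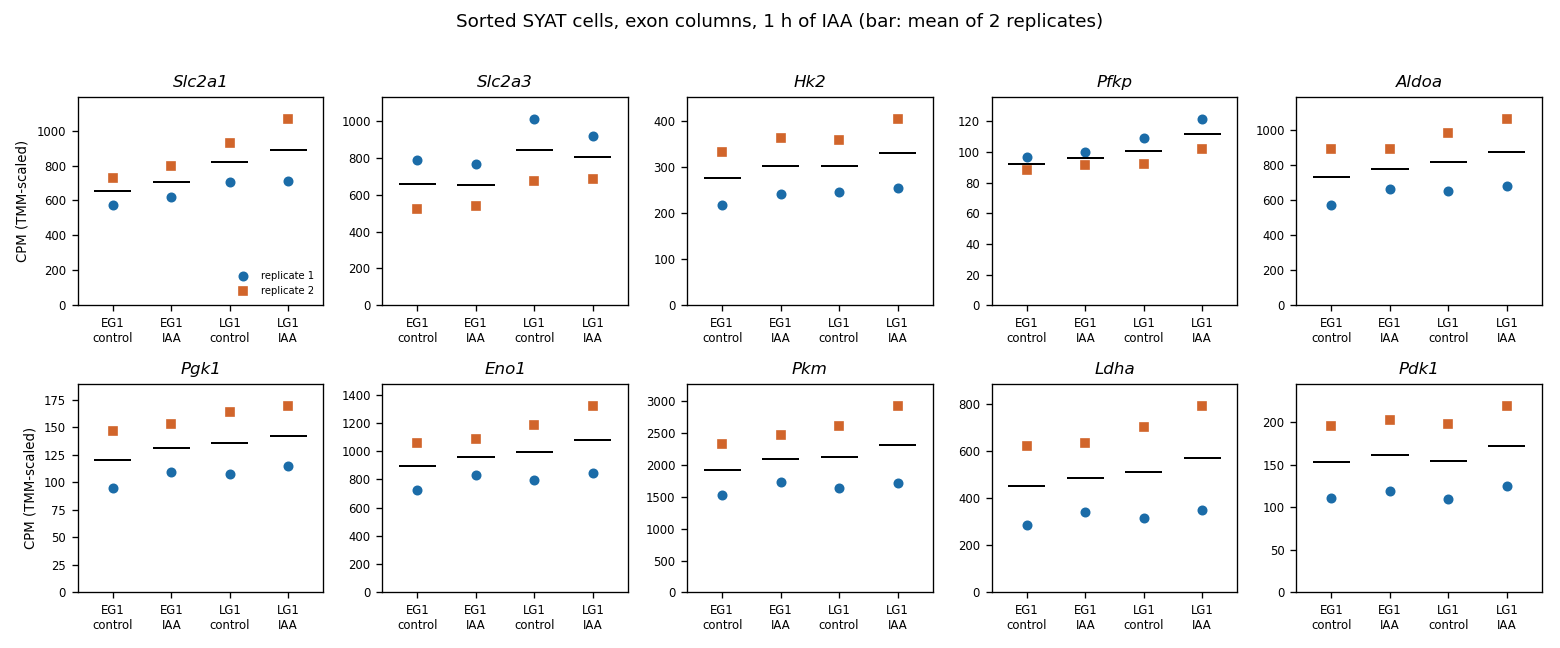
Exon CPM (TMM-scaled) of the 10 members in sorted SYAT cells, with circles for replicate 1, squares for replicate 2 and a bar for their mean. Replicate 1 lies below replicate 2 for 8 genes and above it for Slc2a3 and Pfkp in all 4 conditions.

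LG1 was compared with EG1 to see whether the members follow the passage through G1. All 10 members were higher in LG1 than in EG1, in controls and after IAA, with medians of 0.16 and 0.17 on the log2 scale, and none passed the call or an unadjusted p under 0.05. Leaving out 1 library turned the sign of 7 of the 10 in both comparisons, all but Slc2a1, Slc2a3 and Pfkp. In controls Ldha then lay at -0.51 to 0.84 and Pkm at -0.23 to 0.49. Those fits also leave the replicate numbers unbalanced, so a turned sign can come from the gap between replicates. By replicate number, Ldha had 286 and 619 CPM in EG1 controls against 317 and 701 in LG1 controls. Pdk1 was mixed, with 112 and 195 against 109 and 198 CPM. Slc2a3 stood highest in controls, with 792 and 524 CPM in EG1 and 1014 and 674 in LG1 (0.36, SE 0.30, adjusted p 1.0), and Slc2a1 with 576 and 728 against 706 and 929 CPM (0.33, SE 0.25). The other 8 members lay between 0.01 (Pdk1) and 0.17 (Pgk1) in controls. After IAA Slc2a1 stood at 0.33, Slc2a3 at 0.30, Ldha at 0.23, Pfkp at 0.22, Eno1 at 0.18, Aldoa at 0.17, Pkm at 0.14, Hk2 at 0.12, Pgk1 at 0.11 and Pdk1 at 0.09. Of all genes 49.8% and 52.2% were higher in LG1, 0% met the call in either comparison, and 0% met it for the difference of the IAA effects between the phases, where the members lay between -0.06 and 0.10 with SEs of 0.22 to 0.79.
In introns after 1 h, Pfkp in EG1 had 21.7 and 29.8 CPM in controls and 36.1 and 41.0 after IAA (0.58, SE 0.21, adjusted p 1.0), without overlap. It was the 1 member at an unadjusted p under 0.05 in EG1, and there was none without the first control or the second treated library, where 0.39% of 17441 genes were higher at that threshold and 0.00573% met the call. In LG1, where 1.24% were higher and 0% met the call, the 8 members with values lay between 0.18 and 0.54, with Pdk1 highest (33.8 and 47.6 against 49.6 and 68.8 CPM, SE 0.41), and none was at an unadjusted p under 0.05. In LG1 introns both treated libraries of Slc2a3, Pdk1, Pfkp and Pgk1 lay above both controls, and those of Hk2, Pkm, Ldha and Eno1 overlapped. The intron columns of EG1 and LG1 hold different kinds of reads and were not compared with each other.

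In wtSRCAP and cdSRCAP cells all 10 members were higher after 4 h of IAA in exons, with medians of 0.35 and 0.33 on the log2 scale against -0.02 and 0.02 over all genes, of which 47.7% and 52.3% were higher. Slc2a1 stood highest in both lines. The main edgeR fit called no member, with 1 at an unadjusted p under 0.05 in wtSRCAP cells and 0 in cdSRCAP cells. DESeq2 without a replicate term called none, while with a replicate block both called Slc2a1 in wtSRCAP cells, as given at the end. Of 19111 genes in the main edgeR fit, 0.00523% in wtSRCAP and 0% in cdSRCAP cells met the call. At the unadjusted threshold 2.93% and 1.65% were higher. Leaving out a wtSRCAP library left 0 or 2 members at that threshold. Without the first cdSRCAP control library, 5 of 10 members were higher with a median of 0.00, and without the first wtSRCAP control library, 7 of 10 with a median of 0.20.
Slc2a1 had 656 and 482 CPM in wtSRCAP controls and 1135 and 727 after IAA, a log2 fold change of 0.71 (SE 0.28, adjusted p 0.66). Without the first IAA library it was 0.38 and without the second 1.02. In cdSRCAP cells it had 519 and 514 CPM in controls and 854 and 630 after IAA (0.52, SE 0.28, adjusted p 0.95). Treated libraries lay above controls in both lines, with wide spread after IAA.
Pdk1 had 188 and 167 CPM against 242 and 210 in wtSRCAP cells (0.35, SE 0.20), and 185 and 195 against 260 and 237 in cdSRCAP cells (0.39, SE 0.20). Hk2 had 493 and 610 against 707 and 722 CPM (0.37, SE 0.22), and 404 and 525 against 543 and 560 (0.25, SE 0.22). Pfkp had 112 and 102 against 156 and 119 CPM (0.36, SE 0.21), and 116 and 104 against 147 and 139 (0.38, SE 0.21). For these 3 genes the groups did not overlap in either line.
The remaining members had log2 fold changes in wtSRCAP and cdSRCAP cells of 0.32 and 0.34 for Slc2a3, 0.42 and 0.32 for Aldoa, 0.12 and 0.32 for Pgk1, 0.29 and 0.27 for Eno1, 0.34 and 0.17 for Pkm and 0.36 and 0.33 for Ldha. Their SEs were 0.32 to 0.47. Replicate 1 was below replicate 2 for Aldoa, Pgk1, Eno1, Pkm and Ldha in all 4 conditions, and above it for Slc2a3 in 3 of 4.
Several marker sums moved with the treatment in these lines, and others overlapped between the groups. The 8 primitive endoderm markers, none of them at 0, summed to 292 and 345 CPM in wtSRCAP controls against 466 and 541 after IAA, and to 253 and 312 against 381 and 369 in cdSRCAP cells. Fibroblast markers, with Postn and Lum at 0, summed to 6.22 and 7.40 against 13.6 and 13.3 CPM in wtSRCAP cells, and to 8.44 and 9.33 against 9.52 and 9.15 in cdSRCAP cells. The 10 ES cell markers summed to 2871 and 3366 against 3779 and 3898 CPM in wtSRCAP cells. In cdSRCAP cells they overlapped, at 3451 and 4611 against 4322 and 5126. Neural progenitor markers summed to 103 and 117 against 173 and 130 CPM in wtSRCAP cells. They overlapped in cdSRCAP cells, at 91.4 and 131 against 119 and 142. Mesoderm markers summed to 9.0 and 6.49 against 17.2 and 11.4 CPM in wtSRCAP cells and to 10.2 and 10.1 against 19.8 and 17.9 in cdSRCAP cells. The part of these differences in the members' values was not tested.

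In the intron columns of the same libraries Pgk1 stood highest in wtSRCAP cells. It had 81.1 and 82.4 CPM in wtSRCAP controls and 168 in both IAA libraries, a log2 fold change of 1.04 (SE 0.21, adjusted p 0.089), which DESeq2 called (adjusted p 0.0041), as it did 0.924% of 20012 genes. Leaving out any 1 of these 4 libraries kept it between 1.02 and 1.04. In cdSRCAP cells it had 57.2 and 84.3 CPM in controls and 97.8 and 120 after IAA (0.62, SE 0.21, adjusted p 0.29). Both lines thus had treated libraries above both controls, as did CGR8 cells.
Pkm had 572 and 564 intron CPM in wtSRCAP controls against 775 and 768 after IAA (0.44, SE 0.14, adjusted p 0.24), and 491 and 478 against 709 and 653 in cdSRCAP cells (0.49, SE 0.14, adjusted p 0.20). Eno1 had 177 and 189 against 264 and 233 CPM in wtSRCAP cells (0.44, SE 0.14, adjusted p 0.25) and 136 and 138 against 156 and 167 in cdSRCAP cells (0.23, SE 0.14). Hk2 had 332 and 331 against 440 and 418 CPM in wtSRCAP cells (0.37, SE 0.13, adjusted p 0.28) and 301 and 305 against 351 and 370 in cdSRCAP cells (0.25, SE 0.13). None of these groups overlapped.
Ldha had 69.1 and 99.8 against 107 and 117 CPM in wtSRCAP cells (0.41, SE 0.21), and 51.3 and 59.5 against 89.2 and 80.5 in cdSRCAP cells (0.61, SE 0.21, adjusted p 0.30). Slc2a3, Pfkp and Pdk1 stood at 0.37, 0.23 and 0.10 in wtSRCAP and at 0.33, 0.43 and 0.14 in cdSRCAP cells, with SEs of 0.20 to 0.24. At an unadjusted p under 0.05 were 4 of 8 members in wtSRCAP cells and 3 of 8 in cdSRCAP cells, all higher, where 5.76% and 3.78% of 12702 genes were higher and 0.299% and 0.236% met the call. Without the first treated wtSRCAP library 2 of its 8 members were at that threshold, and leaving out a cdSRCAP library left 2 or 3.

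**Figure D5:**
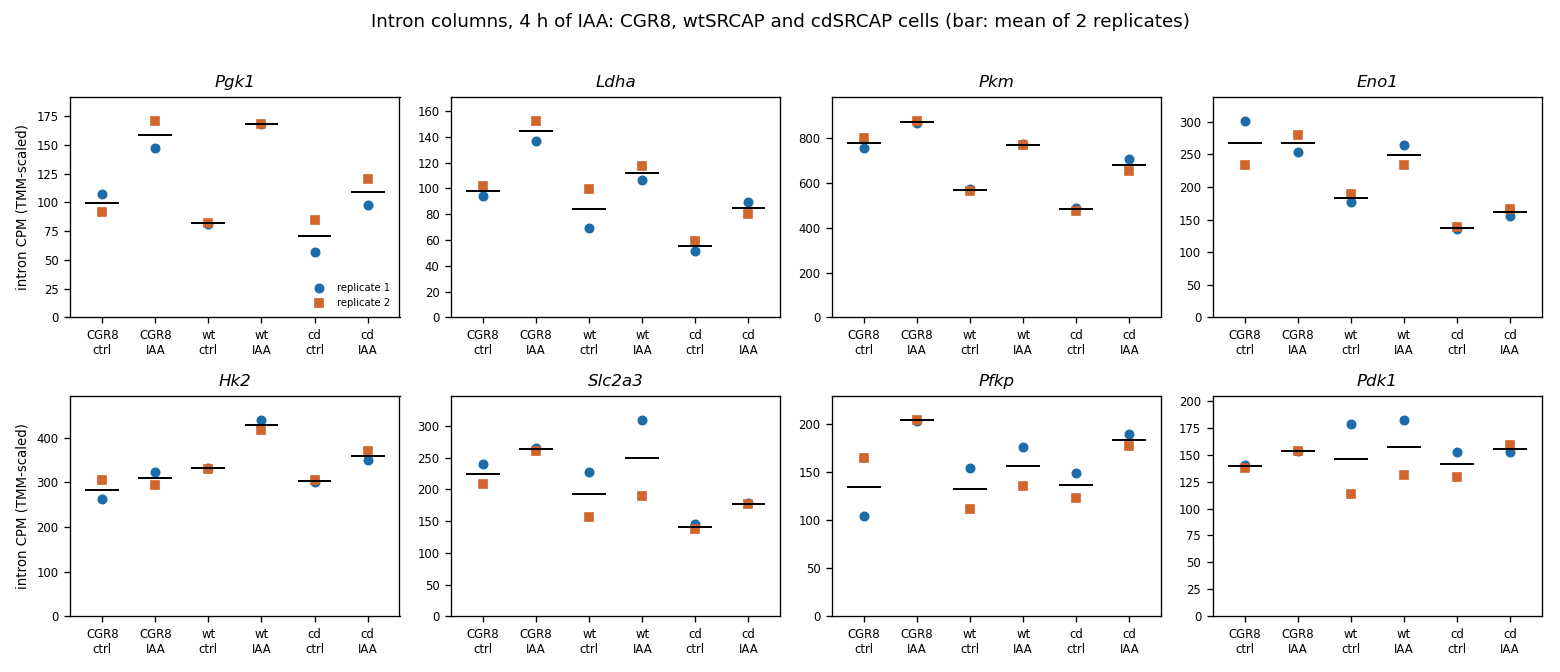
Intron CPM (TMM-scaled) of the 8 members with intron values in CGR8, wtSRCAP and cdSRCAP cells with and without 4 h of IAA, with circles for replicate 1, squares for replicate 2 and a bar for their mean. Pgk1 and Ldha lie above both controls in both treated libraries of all 3 lines, and CGR8 values are scaled apart from the others.

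The catalytically dead form was compared with the wild type to see whether the members differ between the lines at the same treatment. In exons no member was called or at an unadjusted p under 0.05, and all genes met the call in 0% in controls and 0.00523% after IAA. Hk2 differed most, with 493 and 610 CPM in wtSRCAP and 404 and 525 in cdSRCAP controls (-0.25, SE 0.22), and 707 and 722 against 543 and 560 after IAA (-0.37, SE 0.22, adjusted p 0.96). In controls Slc2a1, Slc2a3, Pfkp, Aldoa, Pgk1, Eno1, Pkm, Ldha and Pdk1 stood at -0.14, -0.22, 0.04, -0.14, -0.17, -0.23, 0.01, -0.23 and 0.10 in that order. After IAA they stood at -0.33, -0.19, 0.06, -0.24, 0.03, -0.26, -0.17, -0.26 and 0.14. The IAA effects of the lines differed by -0.19 to 0.20 with SEs of 0.28 to 0.66, and 0% of genes met the call for that difference, so an equal effect in both lines is not shown.
In introns, Eno1 and Ldha were at an unadjusted p under 0.05 and lower in cdSRCAP controls, and Eno1 and Pgk1 after IAA. Eno1 had 177 and 189 CPM in wtSRCAP and 136 and 138 in cdSRCAP controls (-0.42, SE 0.14, adjusted p 0.53), and 264 and 233 against 156 and 167 after IAA (-0.62, SE 0.14, adjusted p 0.21). Ldha had 69.1 and 99.8 against 51.3 and 59.5 CPM in controls (-0.61, SE 0.21, adjusted p 0.53). Pgk1 had 168 in both against 97.8 and 120 CPM after IAA (-0.62, SE 0.20, adjusted p 0.36). Lower values met that threshold in 2.16% and 4.39% of 12702 genes, and 0.102% and 0.0157% met the call. For the difference of the IAA effects 0% met it, and Pgk1 stood at -0.42 (SE 0.29, adjusted p 1.0).

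The wider pathway was followed in 8 lists, written with earlier results of these data known. With edgeR none of their genes was called in the exon columns. DESeq2 called Slc16a3 higher and Stc2 lower in CGR8 cells, and Bhlhe40 higher in cdSRCAP cells. In SYAT cells it called Pfkfb3, Epas1 and Bhlhe40 higher and Insig2 lower at 6 h. At 8 h it called Epas1 and Bhlhe40 higher and Insig2 lower. Counts of calls over all genes in these DESeq2 fits are given at the end. In the SYAT time course at 6 h 11 were higher and 7 lower at an unadjusted p under 0.05 of 109 entries tested, against 7.93% and 8.21% of all genes. In wtSRCAP and cdSRCAP cells 11 and 10 of 108 entries were higher and 2 and 5 lower, against 2.93% and 1.65% of all genes higher and 4.48% and 3.99% lower. In CGR8 cells 8 of 111 were higher and 8 lower, against 5.04% and 4.12%. Entries rather than genes are counted, since some HIF targets stand in 2 lists.
Of the regulators of phosphofructokinase, Pfkfb3, an enzyme that makes the activator fructose 2,6-bisphosphate, had 25.8 and 23.6 CPM in SYAT controls, 37.6 and 30.8 at 2 h, 38.7 and 32.2 at 4 h, 38.8 and 40.3 at 6 h and 39.1 and 36.7 at 8 h. All 8 treated libraries lay above both controls, by 0.47, 0.52, 0.68 and 0.62 on the log2 scale (SE 0.16, adjusted p 0.097 at 6 h). It had 22.7 and 23.4 CPM in wtSRCAP controls against 47.0 and 33.8 after IAA (0.80, SE 0.23, adjusted p 0.64), and 17.9 and 17.5 against 34.1 and 29.9 in cdSRCAP cells (0.85, SE 0.23, adjusted p 0.72). In CGR8 cells it had 22.6 and 21.4 CPM without and 19.5 and 18.4 with IAA (-0.21, SE 0.16, adjusted p 0.70), below both controls. Its relative Pfkfb4 went the other way, at -0.91 (SE 0.36, adjusted p 0.26) at 6 h and -1.45 (SE 0.49, adjusted p 0.75) in cdSRCAP cells, from 14 to 71 counts a library in the latter table. In exons 1 of the 5 regulators was higher at an unadjusted p under 0.05 at each SYAT time and in each of the SRCAP-mCherry lines, and 0 in CGR8 cells.
Among 15 other sugar and lactate transporters, Slc16a3, the lactate exporter MCT4, had 134 and 137 CPM in CGR8 cells without and 212 and 203 with IAA (0.61, SE 0.12, adjusted p 0.54, called by DESeq2). It stood at 0.42 (SE 0.17, adjusted p 0.26) at 6 h in SYAT cells, with 357 and 329 CPM in controls against 447 and 467, and at 0.92 and 0.96 (SE 0.24, adjusted p 0.62 and 0.72) in wtSRCAP and cdSRCAP cells. Slc2a5, the fructose transporter GLUT5, stood at -1.47 (SE 0.43, adjusted p 0.29) at 4 h and -1.43 (SE 0.44, adjusted p 0.17) at 6 h, from 12 to 72 counts a library. Slc2a12 and Slc2a13, which also came near the top of this list in wtSRCAP and cdSRCAP cells, had 0 counts in some libraries of that table and get no fold here.
Among 18 other glycolytic enzymes, Eno2, the neuronal enolase, stood at -0.83, -1.52 and -1.37 at 4, 6 and 8 h in SYAT cells (SE 0.36 to 0.39, adjusted p 0.11 at 6 h), from 11 to 48 counts a library. Pklr, the liver and red-cell pyruvate kinase, stood at -1.81 (SE 0.42, adjusted p 0.11) at 8 h, from 7 to 34 counts. Pfkm, the muscle-type phosphofructokinase, stood at 0.52 (SE 0.22, adjusted p 0.28) at 6 h, and Pfkl, the liver type, at 0.53 (SE 0.23, adjusted p 0.67) in wtSRCAP exons and 1.28 (SE 0.22, adjusted p 0.052) in wtSRCAP introns. The isoforms Eno2 and Pklr thus had the opposite sign to the members Eno1 and Pkm at those times, with the difference not tested.
In the pentose phosphate list of 10 genes, H6pd, which oxidises glucose 6-phosphate in the endoplasmic reticulum, stood at 0.70, 0.55 and 0.51 (SE 0.17) at 4, 6 and 8 h, with an adjusted p of 0.21, 0.17 and 0.23. In the list of 13 genes of pyruvate dehydrogenase and pyruvate import, Pdha1, its catalytic subunit, stood at 0.40 (SE 0.15) and Dld at -0.67 (SE 0.25) at 6 h, with adjusted p of 0.22 and 0.23. In the list of 14 genes of glycogen and gluconeogenesis, Pck2, the mitochondrial PEP carboxykinase, stood at -0.69 (SE 0.18, adjusted p 0.54) in CGR8 cells and at -0.67 (SE 0.29, adjusted p 0.35) at 8 h in SYAT cells.
Of 10 HIF regulators, Epas1, which encodes HIF-2 alpha, stood at 0.64, 0.84 and 0.87 (SE 0.26) at 4, 6 and 8 h in SYAT cells, with an adjusted p of 0.48, 0.17 and 0.18. Among the lists it was the only gene called by edgeR in introns. That was in wtSRCAP cells after IAA (1.01, SE 0.13, adjusted p 0.028) and between cdSRCAP and wtSRCAP control introns (1.23, adjusted p 0.019). In introns DESeq2 also called Pfkl, Slc16a3, Ak4 and Mxi1 after IAA in 1 or both of these lines, all higher. In SYAT introns it called Pfkfb3, H6pd and Ndrg1 higher and Insig2 lower at 1 or more times. The value for Ndrg1, called at 4 h only, was 8.95 with an SE of 2.59, and it is not read as a fold here. Egln3, a prolyl hydroxylase that marks HIF for degradation and is itself a HIF target, stood at 1.11 and 1.5 (SE 0.37) in wtSRCAP and cdSRCAP cells, with an adjusted p of 0.64 and 0.72. Of 35 other HIF targets, some of them also in the lists above, 3 were higher and 2 lower at an unadjusted p under 0.05 at 6 h in SYAT cells, and 6 higher and 1 lower in wtSRCAP cells. Insig2, a brake on sterol synthesis, stood at -0.95 and -1.02 (SE 0.20) at 6 and 8 h, with adjusted p of 0.074 and 0.077, and at -0.88 (SE 0.23, adjusted p 0.62) in wtSRCAP cells. In the sorted cells 1 list entry was higher in EG1 and 0 in LG1 after IAA at that threshold.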

How the data were processed

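Nuclear RNA of mouse ES cells was sequenced as directional libraries (30 libraries, 15 conditions, 2 replicates each). The authors deposited raw read counts per gene, made by aligning reads to mm10 with STAR and counting them over GENCODE vM25 exons and over introns, the gene body less its exons, with featureCounts; the labels also name SAMtools 1.10 and Picard. Tables of the authors' own DESeq2 comparisons (fold changes and p-values) were not used. Of 55401 identifiers, 55141 were given a symbol from GENCODE vM21. Each table and column was fitted with edgeR 4.0.16 (R 4.3.3; TMM, filterByExpr with a minimum count of 10 and a total of 15, quasi-likelihood F test, two-sided) over all its conditions, and p-values were adjusted by Benjamini-Hochberg over all genes tested. A call needed an adjusted p under 0.05 and an absolute log2 fold change over 0.5. Standard errors are the absolute log2 fold change over the root of F. CPM values are scaled by TMM within a table. Intron columns of EG1 and LG1 were not compared.

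The members and gene lists were chosen with earlier results of these data known. All members are named in every comparison, with values by library at an unadjusted p under 0.05 or for the largest change, and of each list the called genes or a pair with the smallest p; values by library of Pfkfb3 and Slc16a3 were added after their results were seen. Alternatives were RLE factors, no filter, a replicate block, DESeq2 1.42.0 with and without it, a fit on the compared conditions alone, introns minus exons, a looser call for sorted cells, and leaving out each library. The scripts were tested on simulated data. Shared sequence was found with blastn 2.17.0 at 95% identity over 100 bases. Promoters are from RefSeq on GRCm38.p6. Depth is the sum of counts; duplicates limit the precision.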

Additional observations from a re-analysis of the deposited data

How the results depend on the processing

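Members called. With edgeR's main settings 0 members were called in each comparison. Without a filter on low counts, 1 member was called in CGR8 introns, 1 in SYAT exons at 6 h and 1 in wtSRCAP introns. DESeq2 called 1 member in SYAT introns at 6 h and 1 at 8 h (Pfkp), and 1 in wtSRCAP introns (Pgk1). Under the looser call for sorted cells, an absolute log2 fold change over 0.25 at an unadjusted p under 0.05, 1 member passed in EG1 introns (Pfkp). Leaving out 1 library gave 0 to 3 called members in CGR8 introns, 0 to 6 in SYAT exons at 6 h and 0 to 1 in SYAT introns at 6 h. RLE size factors and fits on the compared conditions alone left the count of called members at 0 in every comparison where they were run.

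Replicate block. The labels number replicates alike across conditions, but with 2 pairs a comparison and no shared source stated, the numbers were not used as pairs. Deviations of same-numbered exon libraries correlated at 0.0736 in CGR8 cells, -0.04 to 0.589 in the time course, 0.372 to 0.586 in sorted cells and 0.259 to 0.376 in the SRCAP-mCherry lines, a hint from the data, not the design, that same-numbered libraries of those last tables deviated together. In exons, 8 of 10 members in EG1 and 9 of 10 in LG1 had the IAA library above its same-numbered control, for both numbers. The share of all genes that did so was not counted. With a replicate block edgeR called 1 member in SYAT exons at 6 h (Slc2a3, 0.56, adjusted p 0.040), 1 in wtSRCAP exons (Slc2a1, 0.70, adjusted p 0.0095), 1 in wtSRCAP introns (Pgk1, 1.03, adjusted p 0.013) and 1 between cdSRCAP and wtSRCAP introns after IAA (Eno1, -0.62, adjusted p 0.032). DESeq2 with the block called 2 members in SYAT exons at 6 h (Slc2a3 and Pdk1), 1 in SYAT introns at each of 2, 4, 6 and 8 h (Pfkp), 1 in wtSRCAP exons (Slc2a1), 1 in wtSRCAP introns (Pgk1), 2 in cdSRCAP introns (Pkm and Pgk1) and 2 between cdSRCAP and wtSRCAP introns after IAA (Pgk1 and Eno1). The block changed no other call of a member. Calls over all genes under several of these fits follow for exons. None is given for introns with the block or without the filter, so those member calls cannot be set against the share of all genes.

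Calls over all genes depended far more on these choices, here higher and lower after IAA in exons. At 6 h in SYAT cells edgeR called 6 and 7 of 19205 genes without a block, and 325 and 498 of the same genes with it. Without the filter edgeR called 490 and 395, DESeq2 218 and 348 and DESeq2 with the block 575 and 623. At 8 h edgeR without a block called 1 and 0, the block 174 and 460, no filter 189 and 259 and DESeq2 91 and 289. At 4 h edgeR without a block called 0, the block 27 and 49, no filter 41 and 47 and DESeq2 26 and 89. In CGR8 cells edgeR without a block called 0 and 2, the block 320 and 180, no filter 276 and 110 and DESeq2 79 and 41. In wtSRCAP cells edgeR called 0 and 1 of 19111 genes without a block, and 332 and 280 of the same genes with it. No filter gave 13 and 7 there and DESeq2 10 and 6. In cdSRCAP cells edgeR without a block called 0, the block 100 and 245, no filter 5 and 5 and DESeq2 4 and 13. For LG1 over EG1 in controls edgeR without a block called 0 and the block 113 and 39. The cause was not tested.

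For members at an unadjusted p under 0.05, 31 values under the alternatives passed the call and 0 changed sign; for the other members 184 values moved by at least their SE, and the remaining 2361 values did neither. Signs turned in 32 of 830 exon values under settings that keep all libraries, at main sizes of at most 0.0227, and in 194 of 680 when a library was left out, at main sizes up to 0.359. In introns they turned in 17 of 610 and 69 of 456. In introns, DESeq2 called 217 higher and 295 lower genes at 6 h in SYAT cells against 1 and 1 by edgeR, and 65 and 120 in wtSRCAP cells against 8 and 30.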
